A study of Mus musculus with 3 samples.

Results

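Numbered and adhesion G protein-coupled receptors are receptor genes named Gpr followed by a number, the adhesion receptors named Adgr, and the Gprc5 genes. They were picked by gene symbol alone from RNA sequencing of group 2 innate lymphoid cells (ILC2s), tissue lymphocytes that lack clonal antigen receptors. The symbols matched 80 of 16129 listed genes, of which 55 were numbered, 22 were adhesion receptors and 3 were Gprc5 genes. The cells were sorted by flow cytometry from the lung, the mice being wild type and treated in vivo with IL-33, a cytokine of the epithelium that activates ILC2s. All 3 libraries belong to this 1 group, so no untreated cells were compared and no effect of IL-33 was measured. Strain, age, dose and sorting antibodies are not stated in the labels. The labels do not tie libraries to animals either, and p-values then measure only the spread between these samples, which may be technical.

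G protein-coupled receptors cross the membrane repeatedly and pass an outside signal to heterotrimeric G proteins. Many numbered receptors were cloned by sequence before a ligand was known, and several were later found to sense protons, oxysterols or lysophospholipids. Adhesion receptors carry a long extracellular region that is usually cut next to the membrane by the protein itself and stays attached to the membrane-spanning part. Some proteins with a Gpr number lie in the Golgi or in lysosomes and are not known as surface receptors.

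The libraries held 19948056, 19883728 and 19976129 estimated reads in replicates 1, 2 and 3. All 12 ILC2 markers examined were detected, meaning at 1 TPM or more (transcripts per 1000000) in each of the 3 libraries, with a median of 686.5 TPM. Of 13 listed macrophage and monocyte markers 10 were detected, with a median of 4.09 TPM over the 13. The highest of them were well above that median, with Chil3 at a mean of 375 TPM (SD 74.7) and Lyz2 at 39.1 TPM (SD 6.98). Of the markers of other cells, 7 of 10 epithelial, 3 of 6 eosinophil and neutrophil, 2 of 8 T and NK cell, 1 of 9 endothelial, 1 of 7 B cell and 0 of 6 fibroblast genes were detected. In RNA from many cells together, few cells with much of a transcript and many cells with little of it cannot be told apart.

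Promoter sequences are shown for the oxysterol receptor gene, for 2 proton-sensing receptor genes that were high, for the proton-sensing receptor gene that was close to 0, and for the adhesion receptor gene Adgrg7. They are RefSeq sequences of build GRCm38.p6, from 250 bases before to 50 after an annotated start, and are printed 5′ to 3′ on the gene's strand. Capitals mark the letters GGAAG, the core bound by ETS factors, and GATAA, bound by GATA factors, or their reverse complements CTTCC and TTATC. No 2 matches overlapped. The annotated start used for Gpr132 lies well inside the gene, whose 5′ end is at 112868416. Promoters of Gpr171 and Adgre5 are not shown.
Gpr65, chr12:98268385-98268684, plus strand: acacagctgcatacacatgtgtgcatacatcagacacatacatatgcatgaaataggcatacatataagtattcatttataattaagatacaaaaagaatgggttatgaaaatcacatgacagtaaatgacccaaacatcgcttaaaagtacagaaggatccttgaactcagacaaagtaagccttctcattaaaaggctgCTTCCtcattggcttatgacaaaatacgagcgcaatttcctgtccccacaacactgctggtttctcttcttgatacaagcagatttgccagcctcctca
Gpr132, chr12:112860867-112861166, minus strand: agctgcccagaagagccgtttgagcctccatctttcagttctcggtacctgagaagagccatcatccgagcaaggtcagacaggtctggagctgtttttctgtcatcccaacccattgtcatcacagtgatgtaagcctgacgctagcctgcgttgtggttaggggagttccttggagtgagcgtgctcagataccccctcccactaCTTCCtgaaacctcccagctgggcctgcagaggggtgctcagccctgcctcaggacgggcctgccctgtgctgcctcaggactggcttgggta
Gpr183, chr14:121965144-121965443, minus strand: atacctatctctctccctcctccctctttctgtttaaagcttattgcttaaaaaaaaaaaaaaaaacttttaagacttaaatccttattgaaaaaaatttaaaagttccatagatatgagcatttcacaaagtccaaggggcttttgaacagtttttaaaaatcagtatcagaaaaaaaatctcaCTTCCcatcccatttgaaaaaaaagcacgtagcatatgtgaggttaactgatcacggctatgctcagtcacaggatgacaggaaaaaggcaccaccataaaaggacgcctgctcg
Adgrg7, chr16:56795809-56796108, minus strand: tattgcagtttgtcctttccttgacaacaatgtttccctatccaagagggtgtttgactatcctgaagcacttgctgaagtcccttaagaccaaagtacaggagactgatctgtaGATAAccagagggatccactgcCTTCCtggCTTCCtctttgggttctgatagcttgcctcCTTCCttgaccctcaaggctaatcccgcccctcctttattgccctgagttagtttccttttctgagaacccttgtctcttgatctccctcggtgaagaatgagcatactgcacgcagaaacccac
Gpr4, chr7:19212288-19212587, plus strand: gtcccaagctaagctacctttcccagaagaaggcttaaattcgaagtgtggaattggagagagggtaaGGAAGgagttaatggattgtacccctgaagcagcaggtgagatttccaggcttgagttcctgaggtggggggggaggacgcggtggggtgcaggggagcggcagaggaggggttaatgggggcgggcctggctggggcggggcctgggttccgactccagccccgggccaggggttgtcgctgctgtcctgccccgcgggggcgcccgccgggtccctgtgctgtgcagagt
Each of these held at least 1 ETS core, and Adgrg7 held 3 ETS cores and 1 GATA core. Of all 32851 promoters in the RefSeq table, 71.4% held GGAAG and 25.4% held GATAA on either strand, so a match is common. The promoter of Gpr4 held 14 CG dinucleotides, against 3, 7, 4 and 3 in those of Gpr65, Gpr132, Gpr183 and Adgrg7. The median was 8 CG dinucleotides over 39 promoters of 26 detected receptor genes and also 8 over 38 promoters of 33 undetected ones, against 18 over 16147 promoters of genes listed here and 7 over all promoters in the table. The ETS core was held by 74.4% of the promoters of detected and 60.5% of those of undetected receptor genes, and the GATA core by 15.4% and 18.4%. Among promoters of genes listed here, 74.4% held the ETS core and 18.1% the GATA core. These shares count promoters, of which a gene can have several, and were not tested.

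Lung ILC2s expressed a minority of these receptors, and a few of them accounted for much of the transcript sum. Of the 80 genes 32 were detected, which is 40.0%, against 67.3% of all listed genes. A mean of at least 10 TPM was reached by 17 of the 80, against 51.2% of listed genes, and a mean of at least 100 TPM by 4, against 10.3%. The median over the 80 genes was 0.592 TPM, against 11.2 TPM over all listed genes. The receptors summed to 1323, 1281 and 1304 TPM in replicates 1, 2 and 3. The 3 highest, Adgre5, Gpr171 and Gpr65, took 51.8%, 50.1% and 50.4% of that sum. Levels are given below as TPM, which corrects for transcript length, and means stand with their SD over 3 libraries.

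**Figure D1:**
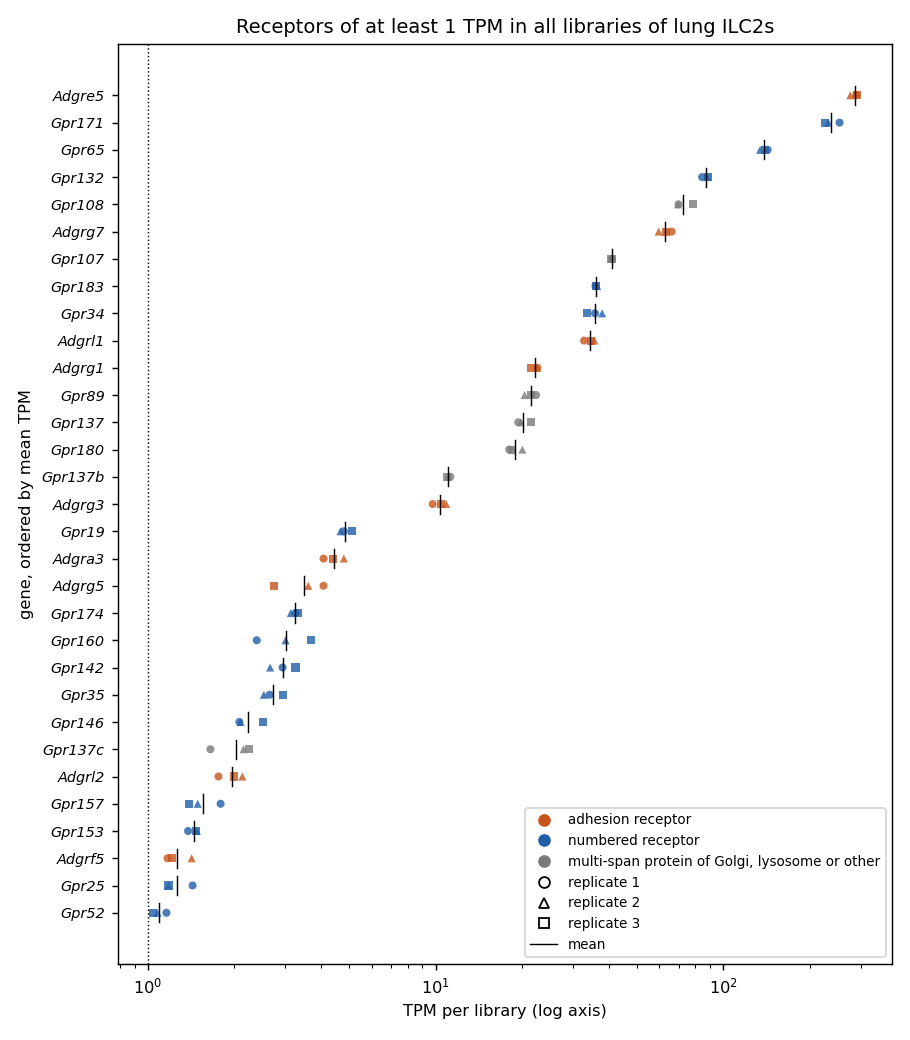
TPM of 31 receptor genes detected in lung ILC2s, 1 gene a row, on a log axis; symbols are the 3 libraries, black bars their mean, colours the kind of protein, and the dotted line is 1 TPM. Adgre5 and Gpr171 lead at means of 286 and 237 TPM, the libraries lie close together down to about Adgrg3, and 15 genes lie between 1 and 10 TPM.

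The proton-sensing receptors, which respond to a fall in extracellular pH through histidine residues, included Gpr65 and Gpr132 at high levels and Gpr4 close to 0. Gpr65, which raises cAMP through Gs, was at 143, 134 and 139.9 TPM in replicates 1, 2 and 3 (139 ± 4.26). Gpr132, known to respond to oxidised fatty acids and lysophospholipids as well, was at 84.4, 88.0 and 88.6 TPM (87.0 ± 2.26), a range that lay below that of Gpr65. In contrast, Gpr4, the proton-sensing receptor of endothelial cells, had 1, 0 and 0 estimated reads. Its mean was 0.013 TPM, and the exact Poisson interval of its 1 read extends to 0.074 TPM. The endothelial markers beside it were also low, with 1 of 9 detected, sums of 3.22, 4.22 and 3.76 TPM in replicates 1, 2 and 3, and Kdr at 0 in replicate 2.

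On the log2(TPM + 1) scale, Gpr65 exceeded Gpr132 by 0.67 ± 0.074 (1.59-fold) and Gpr4 by 7.11 ± 0.029 (SD, n = 3 libraries). Each difference was positive in 3 of 3 libraries and larger than its SD. With Gpr4 close to 0, the size of its difference from Gpr65 depends on the 1 added to TPM, and was 10.3 with 0.1 added. An exact permutation test that flips the signs of the 3 library differences (two-sided) gave p = 0.25 for each of the 11 gene pairs compared here, the smallest value it can give, and 0.25 after Benjamini-Hochberg adjustment. Gpr65 lies on chromosome 12 from 98268635 to 98276722, and Gpr132 on the same chromosome from 112850873 to 112868416. Gpr4 lies on chromosome 7.

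Gpr183, also called EBI2, guides lymphocytes along gradients of dihydroxylated cholesterol and was present at a middling level. It stood at 36.0, 36.5 and 36.1 TPM in the 3 libraries (36.2 ± 0.241). The SD was 0.667% of the mean, less than the 3.16% that counting error alone would give. Gpr183 can therefore not be called steadier than other receptors. Of the enzymes that make and remove its ligand, the 3 with listed genes were low. Hsd3b7, which breaks the ligand down, was detected at 1.85 ± 0.465 TPM. Ch25h, the first enzyme of ligand synthesis, was at 0.767 ± 0.318 TPM with 5 to 12 reads per library, and Cyp27a1 was at 0.090 ± 0.082 TPM. Cyp7b1 and Cyp46a1 were not analysed here, so 1 of the 3 listed enzyme genes was detected. Gpr18, a receptor of lymphocytes whose gene lies 36.4 kb from Gpr183 on chromosome 14, was at 0.45, 0.46 and 0.61 TPM, and Gpr183 exceeded it by 4.63 ± 0.087 on the log2(TPM + 1) scale.

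Gpr34, Gpr174 and Gpr55 were listed as lysophospholipid receptors, and Gpr34 was the highest of these 3. Gpr34, a receptor for lysophosphatidylserine, had 35.8, 37.9 and 33.7 TPM (35.8 ± 2.13). Gpr174, another lysophosphatidylserine receptor that is known to restrain T cells, had 3.26, 3.14 and 3.32 TPM (3.24 ± 0.092). Gpr174 was lower than Gpr34 in 3 of 3 libraries, with a difference in log2(TPM + 1) of -3.12 ± 0.114. Gpr55, which responds to lysophosphatidylinositol, had 2, 0 and 1 reads, and Gpr174 exceeded it by 2.04 ± 0.032. With Gpr55 close to 0, the size of this difference depends on the 1 added to TPM. It was 4.71 with 0.1 added. Abhd16a, which makes lysophosphatidylserine inside cells, was at 72.5 ± 2.05 TPM and Abhd12, which degrades it, at 87.6 ± 2.72 TPM. Pla1a, a secreted phospholipase that forms the same lipid, was at 0.067 ± 0.061 TPM.

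Adhesion receptors held the single highest gene and a few others at high levels. Of the 22, 13 were not detected. The share detected was 40.9%, close to the 40.0% of all 80 genes and beside 67.3% of all listed genes. Adgre5, which encodes CD97 of leukocytes, was at 289.6, 276 and 292 TPM (286 ± 8.50), at percentile 97.1 of all listed genes. Its range lay above that of every other gene of the 80. Of its exon bases 23.8% are also exon bases of Ddx39 on the other strand, which was at 60.5 ± 1.94 TPM. Counting by strand is not stated, so some reads could belong to either gene. Adgre1, which encodes the macrophage protein F4/80 of the same subfamily, was at 0.71, 0.41 and 0.84 TPM, and Adgre5 exceeded it by 7.45 ± 0.156 on the log2(TPM + 1) scale.

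Adgrg7 (GPR128), an adhesion receptor known from the intestine of mice and with no established ligand, followed at 66.1, 59.6 and 63.1 TPM (63.0 ± 3.26). No 50-base word of its single annotated transcript occurs in another listed gene. Adgrl1, a latrophilin that binds teneurins and Flrt proteins at synapses, stood at 32.8, 35.6 and 34.7 TPM (34.4 ± 1.42). Its relative Adgrl2 had 1.96 ± 0.188 TPM, and Adgrl1 exceeded it by 3.58 ± 0.034 on the log2(TPM + 1) scale. Another relative, Adgrl3, had reads in 1 library only, and Adgrl4, a gene of endothelial cells, had 1 to 6 reads per library.

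Adgrg1 (GPR56), a collagen receptor found on human cytotoxic lymphocytes, was at 22.6, 22.6 and 21.4 TPM (22.2 ± 0.664). Adgrg3 (GPR97), known from granulocytes, was at 9.77, 10.9 and 10.4 TPM (10.4 ± 0.558). Adgrg5 was at 4.08, 3.61 and 2.74 TPM (3.48 ± 0.680), lowest in replicate 3. On the log2(TPM + 1) scale the difference of Adgrg3 from Adgrg1 was -1.03 ± 0.086 and that from Adgrg5 was 1.35 ± 0.263, and the 3 ranges did not overlap. The remaining detected adhesion receptors were Adgra3, which is also called GPR125, at 4.08, 4.80 and 4.40 TPM (4.43 ± 0.361) and Adgrf5, a regulator of surfactant in the lung epithelium, at 1.17, 1.42 and 1.21 TPM. Beside Adgrf5, 7 of 10 epithelial markers were detected, with sums of 56.6, 62.5 and 56.1 TPM in replicates 1, 2 and 3. The highest were Cdh1 (23.3 ± 1.02 TPM), Scgb1a1 (15.3 ± 0.980 TPM) and Sftpc (9.40 ± 1.81 TPM). Epcam was at 0.940 ± 0.315 TPM and Cldn18 at 0 in replicate 3. The part of epithelial RNA in the level of Adgrf5 was not tested.

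Ligands of adhesion receptors were looked at in the same cells. Of 17 listed ligand genes 6 were detected, beside 67.3% of all listed genes, a difference that was not tested. The 6 were Thy1 (781 ± 30.3 TPM), Prnp (175 ± 7.10 TPM), Itgb1 (64.9 ± 1.299 TPM), Itgav (43.6 ± 1.77 TPM), Tgm2 (2.85 ± 1.07 TPM) and Itga5 (2.82 ± 0.127 TPM). Tgm2 was highest in replicate 3, at 2.04, 2.46 and 4.06 TPM in replicates 1, 2 and 3. Cd55, which encodes the best known ligand of CD97, was at 0.310 ± 0.020 TPM. The Flrt and teneurin genes, ligands of latrophilins, each had a mean below 0.1 TPM.

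Gpr171 was the second gene of the whole group. It encodes a receptor reported to bind BigLEN, a peptide cut from the precursor proSAAS, in mouse brain. Gpr171 stood at 253.5, 232 and 225 TPM (237 ± 15.0), highest in replicate 1, and its range lay between those of Adgre5 and Gpr65. Its gene, on chromosome 3 from 59096448 to 59101821, lies within Med12l on the opposite strand but shares no exon base with it, and Med12l was at 3.07 ± 0.166 TPM. Pcsk1n, the gene of proSAAS, had at most 1 read per library. Gpr83, reported as a receptor for another peptide of that precursor, had 0, 1 and 0 reads.

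Receptors for other metabolites and chemoattractants were low. Gpr35, a receptor reported to respond to tryptophan metabolites, was at 2.65, 2.53 and 2.96 TPM. Gpr142, an amino acid receptor known from pancreatic islets, was at 2.94, 2.66 and 3.26 TPM, and its 28 to 37 reads per library limit its precision. Gpr25 was at 1.43, 1.18 and 1.18 TPM, while Gpr15, a receptor that directs T cells to the colon, had a single read in 1 library. Gpr84, a receptor for medium-chain fatty acids in activated macrophages, had 0, 0 and 2 reads. Gpr3, a receptor active without ligand, had 0, 0 and 1 reads, and Gpr39, which senses zinc, had 0, 1 and 0.

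Of the Golgi, lysosomal and other multi-span proteins with a Gpr number, 7 of 8 were detected, beside 67.3% of all listed genes, a difference not tested. Gpr108 and Gpr107, related proteins of the Golgi and trans-Golgi network, were at 69.9, 69.6 and 78.3 TPM (72.6 ± 4.93) and at 41.0, 40.8 and 40.9 TPM (40.9 ± 0.123). Gpr108 exceeded Gpr107 by 0.81 ± 0.096 on the log2(TPM + 1) scale (1.75-fold), although in CPM (reads scaled to library size, with no correction for length) the direction turned to -0.065. Gpr89, an anion channel that regulates Golgi pH, was at 22.4, 20.4 and 21.5 TPM (21.4 ± 0.982), and 24.9% of its exon bases overlap Pdzk1, which was at 0.593 ± 0.095 TPM. The lysosomal proteins Gpr137 and Gpr137b were at 19.4, 19.8 and 21.5 TPM (20.2 ± 1.10) and at 11.3, 11.1 and 10.9 TPM (11.1 ± 0.166), and Gpr137 exceeded Gpr137b by 0.81 ± 0.092 (1.76-fold). Gpr137 shares 15.4% of its exon bases with Bad on the other strand, which was at 54.9 ± 1.17 TPM. Gpr180 was at 18.0, 20.0 and 18.4 TPM (18.8 ± 1.06) and Gpr137c at 2.02 ± 0.322 TPM. Gpr155, a lysosomal cholesterol sensor, was the member not detected, at 0.79, 0.67 and 0.76 TPM.

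Several other receptor genes were detected at a few TPM. The orphan receptor gene Gpr19 was at 4.80, 4.67 and 5.12 TPM (4.86 ± 0.232). Gpr160 was at 2.39, 3.01 and 3.69 TPM (3.03 ± 0.650) and Gpr146, known from cholesterol metabolism in liver, at 2.08, 2.10 and 2.52 TPM. The orphan receptor genes Gpr157, Gpr153 and Gpr52 had means of 1.56 ± 0.208, 1.44 ± 0.055 and 1.09 ± 0.061 TPM. Gpr52 was the last gene above the level of detection, with 37 to 42 reads per library. Gpr161, a receptor of the primary cilium, fell just outside it at 1.21, 1.35 and 0.88 TPM.

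The 48 genes that were not detected were mostly close to 0. Apart from Gpr161, Adgrd1 and Gpr45 reached 1 TPM in replicate 1 only, at 1.01 TPM each, and the other 45 were below 1 TPM in every library. Means between 0.2 and 1 TPM were found for 15 genes, in falling order Adgrd1, Gpr45, Gpr62, Gpr155, Gpr63, Gpr179, Adgre1, Gpr162, Gpr182, Gpr18, Gpr135, Gprc5c, Gpr21, Gprc5a and Adgrg6. The remaining 32 had means of at most 0.163 TPM. Among these were 10 adhesion receptors, Adgra2, Adgrb1, Adgrb2, Adgre4, Adgrf1, Adgrf4, Adgrg2, Adgrl3, Adgrl4 and Adgrv1. The others were Gprc5b and 21 numbered receptors, among them Gpr3, Gpr4, Gpr15, Gpr22, Gpr39, Gpr55, Gpr61, Gpr75, Gpr82, Gpr83, Gpr84, Gpr85, Gpr141, Gpr141b, Gpr149, Gpr151, Gpr173 and Gpr176. In all, 29 genes had fewer than 10 reads summed over the 3 libraries, so levels of these genes cannot be ordered. A further 30 symbols of this pattern in RefSeq were not analysed here.

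Some neighbouring receptor genes differed widely in level. Among the genes reported by name, 10 neighbouring pairs lay within 200 kb of each other, and in 6 of them 1 gene was detected and the other was not. Over all pairs of these 76 genes, wherever they lie, that share was 48.9%, so 6 of 10 is close to it and says nothing particular of neighbours. Gpr34 and Gpr82, 5.3 kb apart on the X chromosome, stood at 35.8 ± 2.13 and 0.163 ± 0.049 TPM. Gpr18 and Gpr183, described above, were another such pair. In 3 pairs both genes were detected, and all 3 lay on chromosome 8. They were Adgre5 with Adgrl1, Adgrg5 with Adgrg1, and Adgrg1 with Adgrg3, the last 2.9 kb apart. Of the 6 genes of the group on chromosome 8, 5 were detected, beside 40.0% of the 80 genes and 67.3% of all listed genes. Detection by chromosome was not tested. The pair with 0 detected genes was Gpr141b with Gpr141 on chromosome 13.

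**Figure D2:**
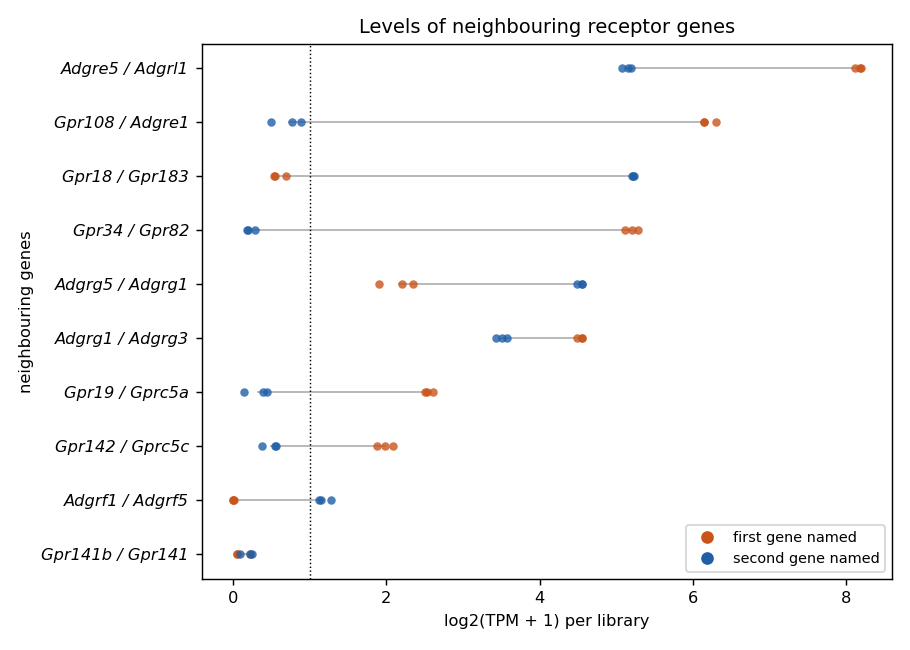
log2(TPM + 1) per library for 10 pairs of receptor genes that lie within 200 kb of each other, 1 pair a row, with the first gene named in orange, the second in blue and the dotted line at 1 TPM. In 9 pairs the 2 genes stand apart, as Gpr34 and Gpr82 do at 35.8 and 0.163 TPM, while Gpr141b and Gpr141 both lie close to 0.

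Other families of G protein-coupled receptors were set beside the numbered and adhesion genes as a description, since the share detected was not tested. They too were picked by gene symbol, the purine family being the numbered P2ry and Adora genes, whatever ligand each binds. Of 21 chemokine receptor genes 61.9% were detected, of 25 lipid mediator receptor genes 68.0% and of 13 purine receptor genes 53.8%, beside 40.0% of the 80 genes. Their medians were 0.592 TPM for the 80 genes, 3.13 TPM for chemokine, 10.7 TPM for lipid mediator and 1.65 TPM for purine receptors. The mean log2(TPM + 1) of the 80 genes was lower in 3 of 3 libraries, by a difference of -1.70 ± 0.010 from chemokine, -1.66 ± 0.018 from lipid mediator and -0.54 ± 0.034 from purine receptors. The leading genes of these families as picked by symbol were Cxcr6 (1317 ± 31.7 TPM), Ltb4r1 (372 ± 8.53 TPM) and P2ry10 (188 ± 2.92 TPM). Adgre5, the highest of the 80 at 286 ± 8.50 TPM, was lower than Cxcr6 and Ltb4r1 and higher than P2ry10. Within the 80, numbered receptors exceeded adhesion receptors by 0.041 ± 0.008 on that scale, a direction that turned round without the Golgi, lysosomal and other multi-span proteins (-0.32), in CPM (-0.13) and among genes with a mean of at least 10 reads (-0.16). The share detected was 41.8% of numbered and 40.9% of adhesion receptors.

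**Figure D3:**
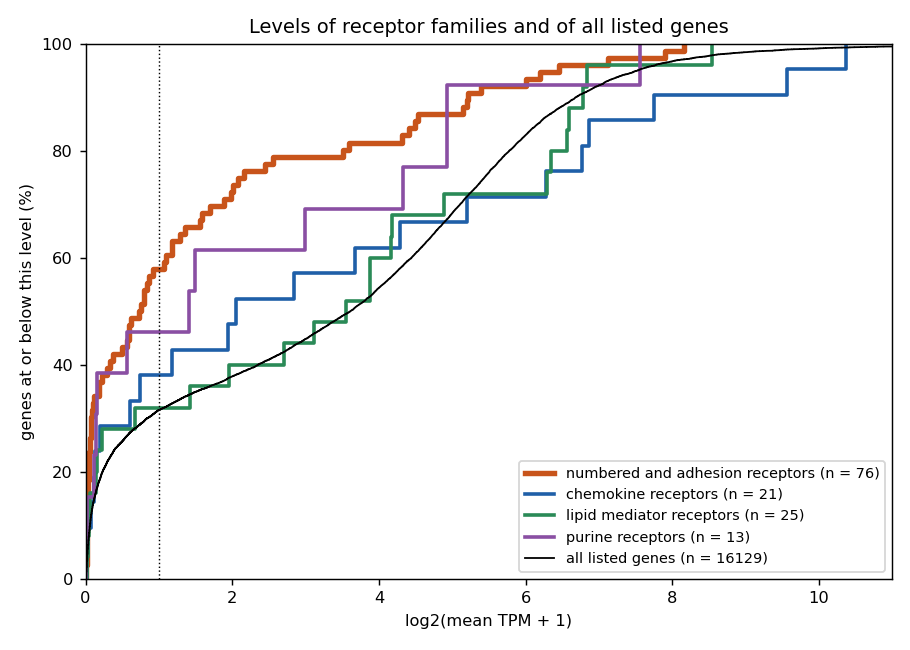
Share of genes at or below each level, as log2(mean TPM + 1), for 76 numbered and adhesion receptors, 3 other receptor families and all 16129 listed genes. The 76 are those reported by name, and the dotted line is 1 TPM. The orange curve of numbered and adhesion receptors runs above the others over most low levels. Over all 80 numbered and adhesion receptors the median was 0.592 TPM, against 11.2 TPM for all listed genes.

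Signalling partners shared by such receptors are given as levels. Of 13 G protein alpha subunit genes 11 were detected, beside 67.3% of all listed genes, a difference that was not tested. The highest were Gnas (874 ± 19.2 TPM), which raises cAMP, Gnai2 (665 ± 12.4 TPM), Gnai3 (230.1 ± 2.55 TPM) and Gna13 (143 ± 3.89 TPM). Gna15, a Gq-class subunit of blood cells, was at 119.7 ± 9.17 TPM and Gnaq at 11.1 ± 0.563 TPM. All 7 listed arrestin and receptor kinase genes were detected too, with Grk2 at 261 ± 7.49 TPM and Arrb2 at 224 ± 2.80 TPM highest.

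The ranking of the receptors was clearest at the top and mostly unresolved at the bottom. Of the 31 adjacent pairs in the order of the 32 detected genes, 14 had library ranges that did not overlap. The first 8 steps, from Adgre5 down to Gpr183, were all separate. Ranges overlapped between Gpr34 and each of its neighbours in the order, Gpr183 above and Adgrl1 below. They also overlapped between neighbours from Adgrg1 through Gpr89 and Gpr137 to Gpr180, from Gpr19 to Gpr35 and from Gpr146 to Gpr25. The steps from Gpr35 to Gpr146 and from Gpr25 to Gpr52 were separate. The coefficient of variation over libraries had a median of 4.13% for the 17 genes with a mean of at least 10 TPM, beside 3.87% for all listed genes at that level. For the 15 detected genes below it, the median was 10.2%, beside 9.22%. In 15 of the 32 the spread was smaller than counting error alone would give. The largest SDs were those of Gpr171, Adgre5 and Gpr108, at 15.0, 8.50 and 4.93 TPM.

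Replicate 3 held more macrophage transcripts than the other libraries, and the receptors did not follow as a group. The 13 listed macrophage and monocyte markers summed to 405, 398 and 556 TPM in replicates 1, 2 and 3, and 12 of them were highest in replicate 3. Most of each sum came from Chil3, at 338, 327 and 461 TPM. The ratio of replicate 3 to the mean of replicates 1 and 2 ran from 1.29 to 1.59 in the 10 detected markers, with a median of 1.40. None of the 13 listed markers was at 0 in any library. For summed markers of other cells the ratio was 1.33 in eosinophil and neutrophil and 1.24 in T and NK cell genes. It was 1.09 in fibroblast, 1.08 in B cell, 1.01 in endothelial, 0.943 in epithelial and 0.992 in ILC2 genes. In the 32 detected receptors the median ratio was 1.01, and 11 of them were highest in replicate 3. The highest ratios were 1.37 for Gpr160, 1.21 for Gpr146 and 1.18 for Gpr137c. Adgre1 had 22, 12 and 25 reads, and was also highest in replicate 3. The part of macrophage RNA in these values was not tested.

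**Figure D4:**
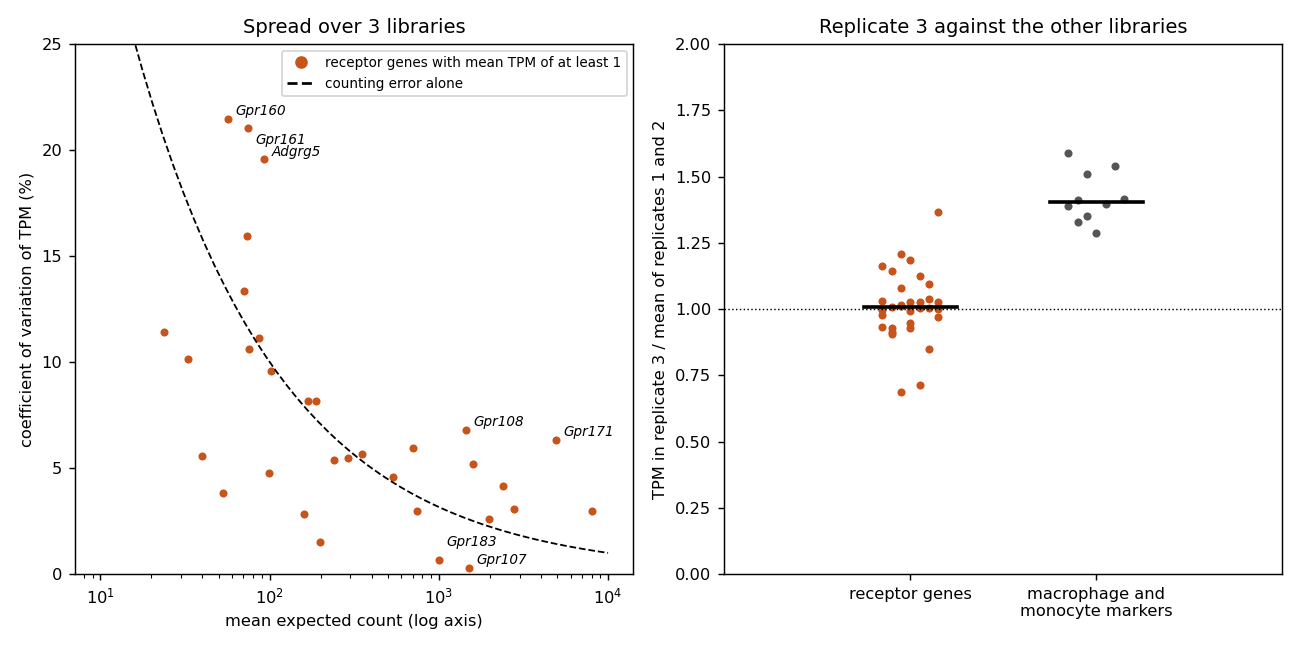
Left, coefficient of variation of TPM over the 3 libraries against mean expected count (log axis) for 32 receptor genes with a mean of at least 1 TPM, with the dashed line showing counting error alone. Right, TPM in replicate 3 divided by the mean of replicates 1 and 2 for these genes and for 10 detected macrophage and monocyte markers, bars being medians of 1.007 and 1.40; the receptor genes centre on 1, below the markers.

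The transcript length used by the authors bears on some levels. An effective length was worked out from expected counts and FPKM, and it exceeded the longest GENCODE transcript for 8 of 30 detected genes with such transcripts. For Gpr35 it was 6531 bases, against at most 4214 bases in GENCODE, and for Gpr25 it was 1968 bases against 1077 bases. A shorter length would give these genes a higher TPM. Adgre5, Gpr89 and Gpr137 were the detected genes with at least 5% of their 50-base words in another listed gene, at 16.5%, 23.8% and 12.1%, so their levels are less certain than the others. A further 1.81% of the exon bases of Gpr137c overlap Txndc16, at 17.1 ± 1.11 TPM. Besides Gpr171, 3 detected genes lie within another gene on the opposite strand without sharing exon bases: Gpr183 within Ubac2 (58.1 ± 2.61 TPM), Gpr34 within Cask (1.55 ± 0.180 TPM) and Gpr146 within 3110082I17Rik (3.15 ± 0.479 TPM).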

How the data were processed

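RNA was sequenced from 3 libraries of sorted lung ILC2s, 1 group. Per the submitters' processing notes, Bowtie2, RSEM 1.3.1 and the build GRCm38.p6 were used, and their roles, settings and annotation are not stated. The authors deposited expected counts (estimated reads, not whole numbers), TPM and FPKM per gene, per the file headers. They also deposited normalised read counts, a depth-scaled signal equal to the rounded-up expected count times a constant per library, which was not used for results.

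Genes were chosen by symbol, and detection means 1 TPM or more in all 3 libraries. Differences were taken within each library on the log2(TPM + 1) scale, where ratios of low genes come out too small, and 11 gene pairs were tested with exact two-sided sign-flip permutations, adjusted together with 4 family contrasts by the Benjamini-Hochberg method. The family contrasts are given without a p. The members, lists and pairs were chosen with earlier results of these data known. Some members, detected ones included, are counted in the totals but not reported here by name. Apart from those, genes were named by a rule: detected members, with values per library for the highest 20 and for the oxysterol, proton-sensing and lysophospholipid receptors, then undetected members by level, the pair genes, the leading partner genes and the members of largest SD or replicate 3 ratio. Exact Poisson intervals (95%) cover counting error only. The depth was about equal in the 3 libraries. Coordinates are from RefSeq for GRCm38.p6, in which all 80 genes were found by Entrez ID, and promoters from RefSeq, with 59 genes matched. Exon overlaps and 50-base words used GENCODE M21 on the same build. The programs, run in Python 3.11.15 with pandas 2.3.3 and SciPy 1.17.1, were tested on simulated data. Alternatives were other detection levels, FPKM, CPM of expected counts, a pseudocount of 0.1, a minimum count, leaving out multi-span proteins and leaving out each library.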

Additional observations from a re-analysis of the deposited data

How the results depend on the processing

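The count of 32 detected receptor genes fell to 17 at a detection level of 5 TPM, which leaves the genes between 1 and 5 TPM out by construction. It lay between 25 and 39 under the other settings, the lowest with FPKM and without multi-span proteins and the highest with CPM, and between 32 and 33 when 1 library was left out. Of 106 alternative values of the 15 differences, 102 kept their direction. The reversed ones were the numbered minus adhesion difference (0.041), which became -0.13 in CPM, -0.16 among genes with a mean of at least 10 reads and -0.32 without multi-span proteins, and, in CPM, Gpr108 minus Gpr107 (-0.065). CPM does not correct for transcript length. Sizes depended on the setting where a gene of the pair was close to 0. Gpr65 minus Gpr4 ran from 6.07 to 10.3 and Gpr174 minus Gpr55 from 1.33 to 4.71. With 1 group there was no comparison between groups to pair, and gene differences were all taken within libraries. Depth limits the 29 genes with fewer than 10 reads in all.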
